A study of Mus musculus with 8 samples.

Results

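The genes of cholesterol and fatty acid synthesis were followed in mouse embryoid bodies directed to a neural fate, with and without activation of the Hedgehog (Hh) pathway. The set holds 32 genes chosen by name: the enzymes from acetyl-CoA to cholesterol, the proteins that sense sterols, a sterol carrier, and the enzymes that make, elongate and desaturate fatty acids. Every probe set whose platform annotation names one of these genes alone was used, which gave 72 of the 45101 probe sets on the array and covered 31 of the 32 genes. Acat2, the thiolase at the entry to the mevalonate route, was not analysed here.

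Total RNA was measured on short-oligonucleotide Affymetrix arrays, 1 array per sample. The embryoid bodies, which are aggregates of differentiating embryonic stem (ES) cells, were treated after 2 days in suspension. A group of 4 samples received 500 nM retinoic acid and 1 uM of an agonist of the Hh pathway, and a group of 4 samples received 500 nM retinoic acid alone. In both groups the labels name the same ES cell line, YFP3.1, in which a FLAG-tagged form of the Hh pathway transcription factor Gli1 is expressed all the time, so the samples with retinoic acid alone carry it too. Both groups are given as 3 days of differentiation, except that replicate 7 of the agonist group has neither line nor time in its labels and was grouped by its title. These are bulk samples, and the labels that give a line all name 1 stem cell line. In bulk samples a change in RNA per cell and a change in the mix of cells cannot be told apart. Whether the samples came from separate cultures is not stated beyond the word replicate, and the tests see no more than the variation among these 8 samples, which may be technical.

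Cholesterol is built from acetyl-CoA through mevalonate, squalene and lanosterol, and its enzymes are largely switched on together by the transcription factor SREBP2 when sterols in the endoplasmic reticulum run low. SREBP1 does the same mainly for fatty acid enzymes. Both factors are held back by Insig proteins and escorted for activation by Scap, and they typically work next to NF-Y or Sp1 on promoters. Cholesterol also has a place in Hh signalling, since the Hh ligand carries a cholesterol group and the receptor protein Smoothened binds sterols.

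Targets of Hh signalling and neuronal genes were higher with the agonist. Ptch1, the Hh receptor and a direct target of the pathway, averaged 516 ± 91.2 intensity units with retinoic acid and agonist and 288 ± 43.7 with retinoic acid alone (SD, n = 4 each; log2 change 0.80, limma adjusted p = 0.000253). Foxa2, the transcription factor of the floor plate, averaged 398 ± 39.6 with the agonist and 55.1 ± 1.48 without it (adjusted p = 2.98e-12). Of 9 tested neuron markers 8 were higher with the agonist, and the summed intensity of the neuron list, 10 genes in all, was 2130 to 2278 with the agonist and 713 to 794 without it. Of 7 tested neural progenitor markers 2 were higher and 1 was lower. Of 7 tested cell cycle genes 2, Ccna2 and Pcna, were lower, and the summed intensity was 6638 to 7116 with the agonist and 7173 to 7636 without it. Of 8 pluripotency genes 1, Klf2, was lower. The endoderm list, whose cells handle much lipid, summed to 220 to 277 with the agonist and to 211 to 232 without it, with 0 of 5 tested markers changed in limma and 1 at an unadjusted p under 0.05, and 4 of its 10 genes, Afp, Apoa1, Apoa4 and Amn, had a mean intensity under 15 in the agonist samples. The part of the neuronal and cell cycle differences in the results below was not tested.

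Synthesis genes that changed were higher with the agonist, and none was called lower. All 31 genes had a probe set bright enough to be tested, that is with a mean log2(intensity + 16) over the 8 arrays above the 40th percentile of the array, about 15.1 intensity units. By the brightest probe set of each gene, Hsd17b7, Hmgcs1, Msmo1, Scd2 and Acly were higher with the agonist at an adjusted p under 0.05 (limma, Benjamini-Hochberg over all 27022 tested probe sets). These are 5 of 31 genes, or 16.1%, where 1.31% of all 13675 tested genes were called higher. The shares were not matched on intensity. Bright probe sets tended to have a smaller SE than dim ones, such as 0.0542 for Msmo1 and 0.127 for a dim Lss probe set. No gene of the set was called lower, where 0.87% of all tested genes were, and 2 of the 31 had an unadjusted p under 0.05 in that direction. Of the 31 changes 21 were above 0 and 10 below, with a median of 0.08 on the log2 scale, beside a median of -0.0059 over all tested genes.

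**Figure D1:**
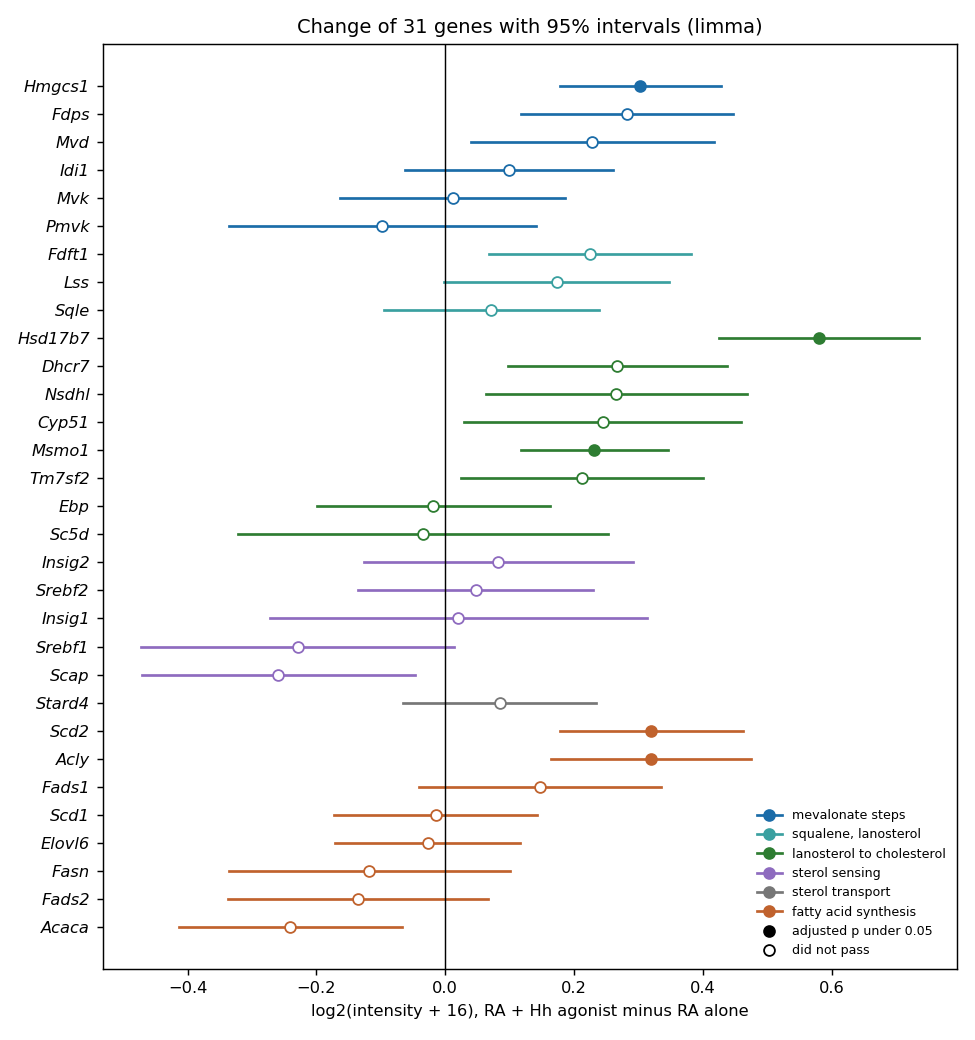
Change of each of the 31 genes by its brightest probe set (log2 of intensity + 16, retinoic acid with Hh agonist minus retinoic acid alone), with 95% intervals from limma. Colours give the role, filled points passed an adjusted p of 0.05, and the 5 filled points all lie right of 0, with Hsd17b7 at 0.58 the farthest.

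Single probe sets of these genes, on the same arrays, gave similar shares. The genes had been chosen with earlier results of these data known, and whether that choice raised the shares was not tested. Of the 72 probe sets 61 were tested and 11 were too dim. Of those tested 9, or 14.8%, were called higher, where 1.14% of all tested probe sets were. None was called lower, where 0.733% of all tested probe sets were, and 2 had an unadjusted p under 0.05 in that direction. For 15 of the 61, or 24.6%, all 4 agonist samples lay above all 4 samples with retinoic acid alone, a pattern held by 3.56% of all tested probe sets. For 1 of the 61 all agonist samples lay below, as for 3.51% of all tested probe sets. The called changes were between 0.23 and 0.58 on the log2 scale, and no tested probe set reached a 2-fold change on that scale.

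The enzymes of cholesterol synthesis, 17 of the 31 tested genes, held 3 of the 5 called genes, close to their share of the set. Of all 13675 tested genes 1.31% were called higher. Of 17 tested enzymes 14 had a change above 0, beside 6592 of all 13675 tested genes, and the median over the enzymes was 0.22. The mean log2 value over these 17 genes was 7.72, 7.70, 7.84 and 7.68 in the agonist samples and 7.53, 7.54, 7.54 and 7.62 in the samples with retinoic acid alone. The highest of the 8 was agonist replicate 7, and the groups did not overlap. Taken by stage, they were apart for the steps from lanosterol to cholesterol and overlapped slightly for the mevalonate steps and for the squalene and lanosterol steps. By the day of hybridisation, 15 of the 17 changes were above 0 on the first day, which holds 1 array of each group, and 13 on the second, which holds 3 of each. The median change was 0.15 on the first day and 0.20 on the second, beside medians over all tested genes of 0.0073 and -0.013.

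**Figure D2:**
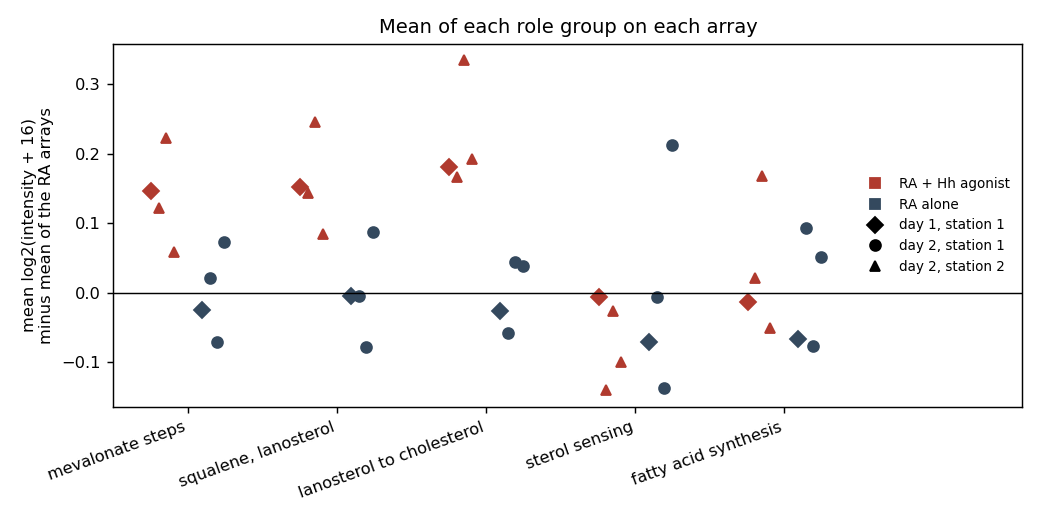
Mean log2(intensity + 16) of the genes of each role on each array, as the difference from the mean of the 4 arrays with retinoic acid alone; agonist arrays are left of the arrays with retinoic acid alone within each role, and symbols give the hybridisation day and fluidics station. The groups separate for the steps from lanosterol to cholesterol and overlap for the other 4 roles shown, which include the mevalonate and the squalene and lanosterol steps.

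The position of the arrays on the instruments limits all of these comparisons. On the first hybridisation day both arrays were washed and stained on the same fluidics station. On the second day the 3 agonist arrays ran on a second station and the 3 arrays with retinoic acid alone on the first, so that station and treatment cannot be told apart on that day. With the station as a block, a fit that rests on agonist replicate 5 against the 4 samples with retinoic acid alone, 0 member genes passed in limma, and the 5 genes called without the block had changes of 0.23 to 0.56 (adjusted p = 0.0529 to 0.547). Without an intensity trend in the model, on the second day alone, and with the mean of all probe sets of a gene, Hsd17b7 was the 1 member gene that passed.

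Promoters of 4 of the 5 called members, all but Scd2, are shown because the enzymes share regulators whose binding motifs are known. RefSeq windows on GRCm38.p6, from 250 bases before to 50 bases after an annotated start, were matched by symbol for 24 of the 31 measured genes. In the sequences below, read 5′ to 3′ in the direction of the gene, capitals mark the sterol regulatory element TCACNCCAC and the NF-Y motif CCAAT, which reads ATTGG where it lies on the other strand.
Hsd17b7, chr1:169969156-169969455, minus strand: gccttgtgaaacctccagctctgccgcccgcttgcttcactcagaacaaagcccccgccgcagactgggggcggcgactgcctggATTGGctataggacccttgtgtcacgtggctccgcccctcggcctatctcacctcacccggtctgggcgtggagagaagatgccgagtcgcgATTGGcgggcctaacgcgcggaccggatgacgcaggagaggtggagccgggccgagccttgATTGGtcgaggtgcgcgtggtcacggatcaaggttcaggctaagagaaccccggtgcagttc
Hmgcs1, chr13:119690101-119690400, plus strand: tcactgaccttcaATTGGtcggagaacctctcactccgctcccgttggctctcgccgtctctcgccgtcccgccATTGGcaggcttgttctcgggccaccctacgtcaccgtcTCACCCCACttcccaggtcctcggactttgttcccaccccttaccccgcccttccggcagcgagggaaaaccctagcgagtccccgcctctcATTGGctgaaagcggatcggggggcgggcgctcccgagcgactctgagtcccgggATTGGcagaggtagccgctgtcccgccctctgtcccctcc
Msmo1, chr8:64733529-64733828, minus strand: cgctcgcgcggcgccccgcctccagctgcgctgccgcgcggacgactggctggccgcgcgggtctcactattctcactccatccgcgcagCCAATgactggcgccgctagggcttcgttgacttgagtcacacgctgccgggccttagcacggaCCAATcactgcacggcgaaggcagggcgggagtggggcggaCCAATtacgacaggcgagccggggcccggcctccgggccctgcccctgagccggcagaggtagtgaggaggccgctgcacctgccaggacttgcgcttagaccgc
Acly, chr11:100527951-100528250, minus strand: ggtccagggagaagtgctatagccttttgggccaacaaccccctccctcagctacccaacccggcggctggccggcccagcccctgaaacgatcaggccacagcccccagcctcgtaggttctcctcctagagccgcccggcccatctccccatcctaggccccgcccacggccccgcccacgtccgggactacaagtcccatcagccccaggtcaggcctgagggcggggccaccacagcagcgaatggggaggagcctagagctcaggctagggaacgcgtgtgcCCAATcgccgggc

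The NF-Y and Sp1 motifs occurred in all 4 windows. CCAAT occurred, on either strand, 3 times in the Hsd17b7 window, 4 times in that of Hmgcs1, 3 times in that of Msmo1 and 1 time, after the start, in that of Acly. All 14 cholesterol enzyme genes with a window held at least 1 CCAAT, as did 20 of the 24 members (83.3%) and 41.1% of the 27025 genes with a window. The Sp1 motif GGGCGG occurred in 20 of the 24 members (83.3%) and in 38.2% of all genes, and the E-box CACGTG in 5 of the 24 (20.8%) and in 8.09%. The sterol regulatory element was searched for as exact matches to TCACNCCAC, and other forms of it were not searched for. A match occurred in 1 of the 24 (4.17%), Hmgcs1, and in 1.44% of all genes. Its first base in Hmgcs1 lay 137 bases before the start. All motifs were searched on both strands, a gene with several windows counted if any held the motif, and no match of one motif in these windows shared bases with a match of another. The windows were not matched on base composition, and a motif match is not evidence of binding. Among the cholesterol enzymes with a window, those that did not pass held CCAAT as well as those that did.

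**Figure D3:**
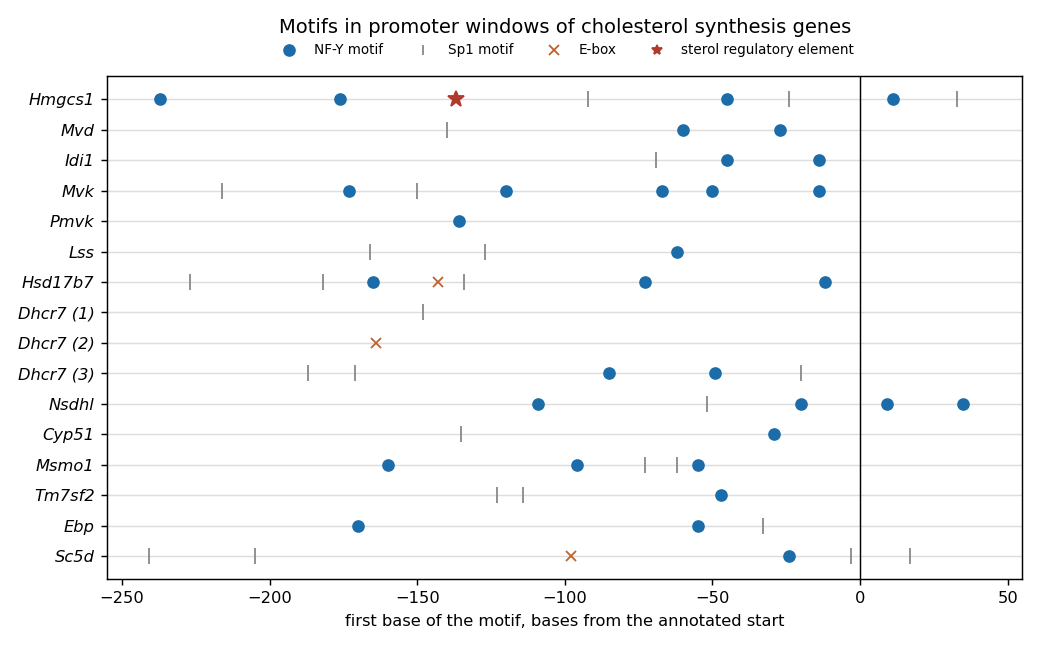
Positions of 4 motifs in the promoter windows of the 14 cholesterol synthesis genes with a RefSeq window (x axis, first base of the motif in bases from the annotated start; 1 row per window that holds a motif). Every gene has at least 1 NF-Y motif. An exact match to TCACNCCAC, the only form of the sterol regulatory element searched for, occurs in Hmgcs1 alone.

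Early steps, from acetyl-CoA to farnesyl diphosphate, included 1 called gene of 6, with a median change of 0.16. Hmgcs1 makes HMG-CoA, the substrate of the rate-limiting step. It had intensities of 739, 681, 796 and 668 in the agonist samples and 597, 581, 579 and 563 in the samples with retinoic acid alone. All agonist samples were above all others, and the spread was wider with the agonist. The means were 721 ± 59.0 with the agonist and 580 ± 13.7 without it (SD, n = 4 each), a log2 change of 0.30 (SE 0.0592, adjusted p = 0.00869), with 0.30 on each hybridisation day. Its next brightest probe sets rose by 0.34 (adjusted p = 0.0115) and 0.33 (adjusted p = 0.0219). Another, at 0.26, did not pass (adjusted p = 0.117), and the dimmest, at 26.8 ± 7.15 with the agonist and 27.2 ± 1.58 without it, was at -0.03 (95% interval -0.30 to 0.24). The call by the brightest probe set held on leaving out any 1 array.

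Fdps, which makes farnesyl diphosphate, was the next in size at this stage but did not pass. Its intensities were 550, 641, 623 and 581 in the agonist samples and 461, 528, 420 and 557 in the samples with retinoic acid alone. Retinoic acid replicate 4 lay above agonist replicate 5, and the other 3 lay below all agonist samples. The log2 change was 0.28 (95% interval 0.12 to 0.45, adjusted p = 0.0843), and without retinoic acid replicate 4 it was 0.34 (adjusted p = 0.0213). Mvd, the decarboxylase that forms isopentenyl diphosphate, averaged 183 ± 11.4 with the agonist and 155 ± 21.2 without it (log2 change 0.23, 95% interval 0.04 to 0.42, adjusted p = 0.284), and its second probe set was at 0.04. The isomerase Idi1 was at 0.10 (95% interval -0.06 to 0.26). The kinases Mvk and Pmvk were at 0.01 (-0.16 to 0.19) and -0.10 (-0.34 to 0.14), and the second Mvk probe set was at -0.03.

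No gene of the squalene and lanosterol steps passed. Fdft1, squalene synthase, had intensities of 269, 273, 294 and 278 in the agonist samples and 217, 241, 221 and 268 in the samples with retinoic acid alone. The groups did not overlap, but retinoic acid replicate 4 came close to the lowest agonist sample. The log2 change was 0.22 (95% interval 0.07 to 0.38, adjusted p = 0.177). Lss, the cyclase that closes squalene epoxide into lanosterol, had 193, 198, 188 and 158 in the agonist samples and 174, 148, 159 and 164 in the samples with retinoic acid alone. The lowest agonist sample, replicate 8, lay below 3 of the 4 others. The change was 0.17 (95% interval -0.0017 to 0.35, adjusted p = 0.413). A dimmer Lss probe set, at 47.4 ± 10.9 with the agonist and 29.0 ± 4.17 without it, was at 0.48 with no overlap between groups (95% interval 0.21 to 0.75, adjusted p = 0.0655). Sqle, the epoxidase before it, was at 0.07 (95% interval -0.10 to 0.24).

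The steps from lanosterol to cholesterol held the member with the largest change. Hsd17b7, the 3-ketosteroid reductase that works with Nsdhl and Msmo1 in removing methyl groups at carbon 4, had intensities of 181, 185, 192 and 175 in the agonist samples and 114, 115, 122 and 118 in the samples with retinoic acid alone. All agonist samples were above the others, with a gap wider than the range of either group. The means were 183 ± 7.17 with the agonist and 117 ± 3.52 without it (SD, n = 4 each), a log2 change of 0.58 (SE 0.0737, 95% interval 0.42 to 0.74, adjusted p = 0.000114). It was 0.60 on the first hybridisation day and 0.57 on the second.

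Other Hsd17b7 probe sets differed in how much they moved. A dimmer one had 53.3, 57.3, 54.7 and 58.6 in the agonist samples and 33.3, 40.7, 41.3 and 38.2 in the samples with retinoic acid alone. It did not overlap between groups and rose by 0.41 (SE 0.098, adjusted p = 0.0391), a call that held on leaving out retinoic acid replicate 3 but on leaving out no other array. Another, brighter than that one, averaged 111.6 ± 21.3 with the agonist and 102.5 ± 9.99 without it, with overlapping groups. Its change was 0.10 (95% interval -0.14 to 0.33) and did not pass (adjusted p = 0.795). The dimmest was too dim to test, at 17.5 ± 2.75 with the agonist and 8.60 ± 2.04 without it, again with no overlap. The brightest probe set carries the suffix that Affymetrix gives to sets with probes that may also match other transcripts, and what it matches was not examined.

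**Figure D4:**
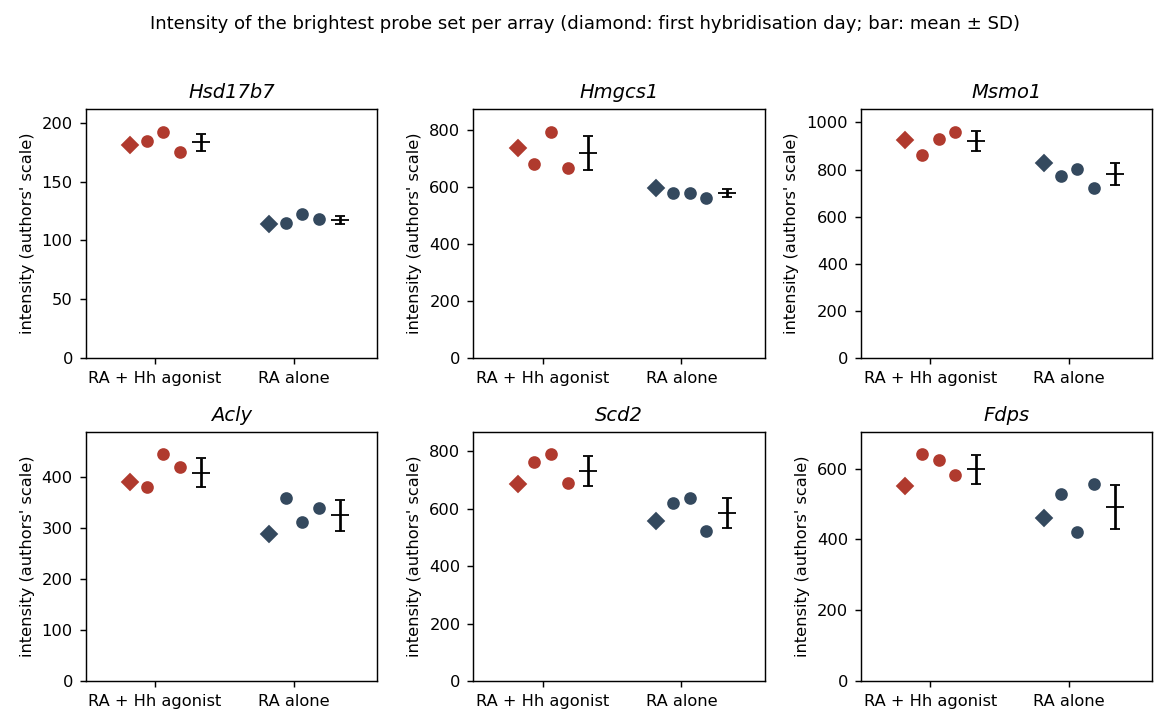
Intensity of the brightest probe set on each of the 8 arrays for the 5 called genes and Fdps, with retinoic acid and Hh agonist at left and retinoic acid alone at right; diamonds are the arrays of the first hybridisation day and bars the mean ± SD (n = 4 each). The groups are apart for the 5 called genes, widest for Hsd17b7, and overlap for Fdps.

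Msmo1, the methylsterol oxidase that starts the removal of those methyl groups, rose less. Its intensities were 924, 861, 931 and 961 in the agonist samples and 829, 770, 803 and 722 in the samples with retinoic acid alone. The lowest agonist sample, replicate 6, was above the highest of the others, retinoic acid replicate 1. The means were 920 ± 42.2 with the agonist and 781 ± 46.0 without it, a log2 change of 0.23 (SE 0.0542, adjusted p = 0.0320), with 0.15 on the first day and 0.26 on the second. On leaving out retinoic acid replicate 2 or 4, or any agonist replicate other than 6, the adjusted p was 0.0656 to 0.134. A dim second probe set was at 0.17 (95% interval -0.07 to 0.42).

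The other enzymes of this stage did not pass, and 4 of them had 95% intervals above 0. The intervals were not adjusted for the number of tests, and the share of all tested genes with such an interval was not counted. Dhcr7, the reductase of the last step, had 255, 273, 318 and 273 in the agonist samples and 217, 241, 209 and 253 in the samples with retinoic acid alone. The groups did not overlap, with agonist replicate 7 well above the rest. The log2 change was 0.27 (95% interval 0.10 to 0.44, adjusted p = 0.124). Nsdhl, the decarboxylating dehydrogenase between Msmo1 and Hsd17b7, had 197, 269, 296 and 245 in the agonist samples and 199, 203, 196 and 220 in the samples with retinoic acid alone. Agonist replicate 5 lay among the samples with retinoic acid alone and the other 3 lay above them. The change of 0.27 (adjusted p = 0.234) was -0.013 on the first hybridisation day and 0.36 on the second, and without agonist replicate 5 it was 0.37 (adjusted p = 0.0315). Cyp51, the lanosterol demethylase, averaged 115 ± 15 with the agonist and 94.0 ± 10.7 without it (0.24, 95% interval 0.03 to 0.46, adjusted p = 0.326), and its second probe set was at 0.26. Tm7sf2, a sterol reductase, averaged 93.3 ± 6.30 with the agonist and 78.4 ± 6.25 without it, without overlap (0.21, 95% interval 0.03 to 0.40, adjusted p = 0.328). The isomerase Ebp was at -0.02 (95% interval -0.20 to 0.16) and the desaturase Sc5d at -0.04 (-0.32 to 0.25), with its other probe sets at -0.12 and 0.10.

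**Figure D5:**
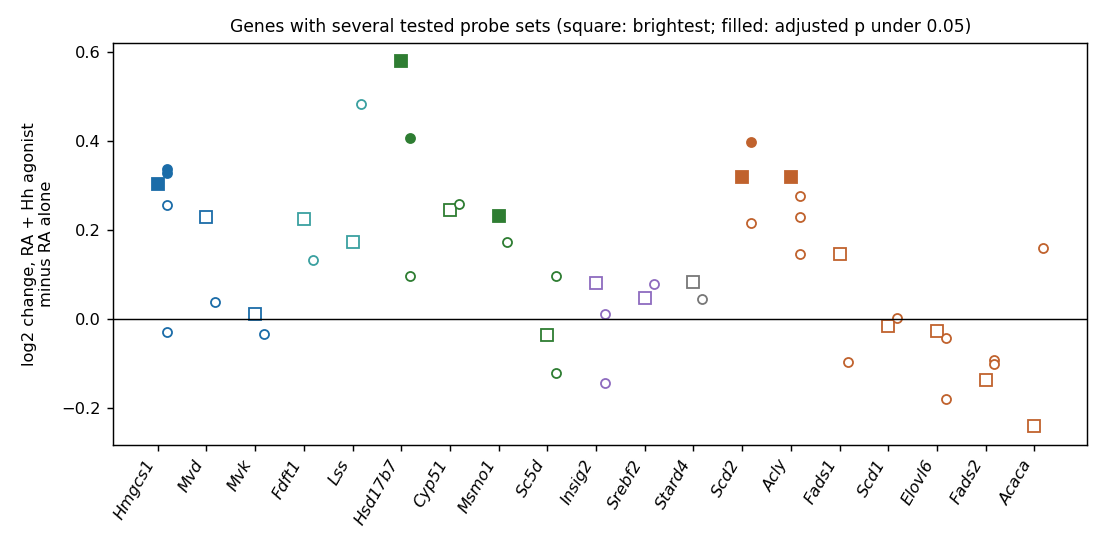
Log2 change of every tested probe set for the 19 genes with at least 2 of them (retinoic acid with Hh agonist minus retinoic acid alone); squares are the brightest probe set of a gene, circles the others, and filled symbols passed an adjusted p of 0.05. All changes of a gene have the same sign for 12 of the 19, and Hmgcs1, Hsd17b7 and Scd2 each have at least 2 called probe sets.

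The sensors of sterols and Stard4 had no called gene. Scap, which escorts SREBP to the Golgi, had 42.7, 35.7, 44.1 and 36.4 in the agonist samples and 49.9, 46.8, 52.4 and 53.2 in the samples with retinoic acid alone. All agonist samples lay below all others. The log2 change was -0.26 (95% interval -0.47 to -0.05) and did not pass (adjusted p = 0.278). Srebf1, which encodes SREBP1, had 70.9, 65.0, 67.2 and 61.7 in the agonist samples and 70.9, 80.2, 66.7 and 108 in the samples with retinoic acid alone. The groups overlapped, and retinoic acid replicate 4 stood well above the rest (change -0.23, 95% interval -0.47 to 0.01, adjusted p = 0.444). Srebf2, which encodes SREBP2, averaged 158 ± 13.1 with the agonist and 153 ± 16.5 without it (0.05, 95% interval -0.14 to 0.23). Insig1, itself a target of SREBP in many cells, averaged 42.8 ± 5.50 with the agonist and 42.9 ± 13.5 without it (0.02, 95% interval -0.27 to 0.31). Insig2 was at 0.08 (95% interval -0.13 to 0.29), with other probe sets at 0.01 and -0.14. Stard4, a soluble carrier of sterols, had 178, 167, 171 and 171 in the agonist samples and 161, 161, 169 and 154 in the samples with retinoic acid alone. The groups overlapped in retinoic acid replicate 3 and agonist replicate 6 (0.08, 95% interval -0.07 to 0.23).

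Fatty acid genes were divided. Of 8 genes Acly and Scd2 were called higher, 6 did not pass, and 5 of those 6 had a change below 0, so that the median was -0.02. Acly makes cytosolic acetyl-CoA from citrate and so feeds both cholesterol and fatty acids. Its intensities were 390, 380, 444 and 418 in the agonist samples and 289, 359, 311 and 339 in the samples with retinoic acid alone. The groups did not overlap, and agonist replicate 6 and retinoic acid replicate 2 came closest. The means were 408 ± 29.0 with the agonist and 324 ± 30.9 without it, a log2 change of 0.32 (SE 0.0741, adjusted p = 0.0299), with 0.42 on the first day and 0.29 on the second. Its dimmer probe sets were at 0.28, 0.23 and 0.15 and did not pass. On leaving out retinoic acid replicate 1 or 3, or any agonist replicate, the adjusted p was 0.0511 to 0.112.

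Scd2, the stearoyl-CoA desaturase that prevails in mouse brain, had 687, 764, 790 and 691 in the agonist samples and 558, 619, 638 and 524 in the samples with retinoic acid alone. Every agonist sample was above every other sample. The means were 733 ± 52.0 with the agonist and 585 ± 52.8 without it, a log2 change of 0.32 (SE 0.0674, adjusted p = 0.0158), with 0.29 on the first day and 0.33 on the second. A second probe set had 214, 260, 292 and 248 in the agonist samples and 168, 199, 181 and 204 in the samples with retinoic acid alone. The groups did not overlap there either (0.40, SE 0.0895, adjusted p = 0.0247). The dimmest was at 0.22 and did not pass (adjusted p = 0.444). The call by the brightest probe set was lost without retinoic acid replicate 1 (adjusted p = 0.0584) or agonist replicate 6 (0.0831).

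Scd1, the close relative of Scd2 that prevails in liver and skin, had 389 to 482 units in the agonist samples and 408 to 480 in the samples with retinoic acid alone. Its change was -0.02 (95% interval -0.17 to 0.14), an interval that does not reach the change of Scd2, though the difference between the genes was not tested. Acaca, acetyl-CoA carboxylase, which commits carbon to fatty acids, averaged 175 ± 15.6 with the agonist and 210 ± 17.2 without it (-0.24, 95% interval -0.41 to -0.07, adjusted p = 0.198), and a dim second probe set was at 0.16. Fasn, fatty acid synthase, averaged 153 ± 19.4 with the agonist and 168 ± 24.8 without it (-0.12, 95% interval -0.34 to 0.10), and was at 0.24 on the first hybridisation day and -0.24 on the second. The elongase Elovl6 was at -0.03 (95% interval -0.17 to 0.12). The desaturases of polyunsaturated fatty acids were at 0.15 for Fads1 (-0.04 to 0.34), with a dim second probe set at -0.09, and at -0.14 for Fads2 (-0.34 to 0.07).

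Lipid genes outside the set were examined on a list of 51, covering sterol efflux, storage and traffic, the isoprenoid branch, SREBP processing, fatty acid supply, glycerolipids and fatty acid oxidation. Of these 45 were tested and 3 were too dim. Npc2 and Tecr were called higher, 2 of 45, where 1.31% of all 13675 tested genes were. The other 43 did not pass, and the median change was 0.0055. None was called lower, where 0.87% of all tested genes were, and 3 had an unadjusted p under 0.05 in that direction. Npc2, which carries cholesterol out of lysosomes, had 1258, 1285, 1181 and 1281 in the agonist samples and 931, 991, 1038 and 922 in the samples with retinoic acid alone. The lowest agonist sample was well above the highest of the others. The log2 change was 0.36 (SE 0.0498, adjusted p = 0.000282), and the call was lost with the mean of its probe sets, where the change was 0.16 (adjusted p = 0.656). Its dimmer tested probe sets were at 0.20 and -0.17 and did not pass. Tecr, the reductase that ends each round of very-long-chain fatty acid elongation, had 781, 821, 847 and 775 in the agonist samples and 603, 702, 582 and 686 in the samples with retinoic acid alone. The groups were apart (0.32, SE 0.0628, adjusted p = 0.00861). A dimmer Tecr probe set was at 0.22 and did not pass (adjusted p = 0.275). When the model had no intensity trend, the adjusted p was 0.0665 for Npc2 and 0.171 for Tecr. The largest of the remaining changes were those of Icmt, a methyltransferase of prenylated proteins, at -0.39 (95% interval -0.64 to -0.14, adjusted p = 0.122), and Ch25h, the cholesterol 25-hydroxylase, at -0.37 (-0.80 to 0.05). Both lay near the filter level, Icmt at 19.4 ± 2.45 with the agonist and 30.4 ± 2.37 without it. Among the genes of sterol efflux and liver X receptor response 0 of 5 tested passed, with a median change of 0.0047.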

How the data were processed

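The values are 1 linear intensity per probe set and array from the value table the authors deposited. Their probe summary, background and scaling steps are not given in the sources used here. Medians per array were 21.6 to 22.6. Hybridisation day and fluidics station were read from the instrument records, per the file headers.

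The authors' normalization was kept. The deposited intensities were turned into log2(intensity + 16), which understates changes of dim probe sets. The 64 control probe sets were left out, and probe sets with a mean at or under the 40th percentile were not tested. Of 45101 probe sets 34945 name 1 gene, 932 several, and 9160 are not listed in the annotation. Groups were compared with limma 3.58.1 in R 4.3.3 (lmFit and eBayes, intensity trend, two-sided tests), and p-values were adjusted by Benjamini-Hochberg over all 27022 tested probe sets, and every adjusted p-value is from this fit or the named alternative. The fit was tested on simulated data. A gene is given by its brightest probe set over all arrays. Values in every sample are given for members with a passed probe set and for the 2 largest changes per role, and other lipid genes are named where they passed or held the 2 largest remaining changes. The members and lists were chosen with earlier results of these data known. Alternatives were quantile normalization, median centring, adding 1 or 64, no filter or the 60th percentile, no trend, array weights, averaging the probe sets of a gene, blocking on hybridisation day, the second day alone and leaving out each array. The fluidics station as a block was added after seeing the data. Python 3.11.15 was used with matplotlib 3.10.9, numpy 2.4.6 and pandas 2.3.3. The number of arrays limits the precision.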

Additional observations from a re-analysis of the deposited data

Results flagged for a closer look

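Of 70 sets of 4 samples examined for a sample far from the others, 2 stood out, and chance alone marks about 1 in 20. Cyp51 in agonist replicate 6 was lowest at 92.3, against 119 to 124 in the other agonist samples, a gap of 0.844 of the group's range, just past Dixon's critical value. Insig2 in retinoic acid replicate 4 was highest at 97.4, against 76.3 to 77.7 in the other samples with retinoic acid alone, a gap of 0.933 of the range.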

How the results depend on the processing

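No paired analysis was possible because the replicate numbers run from 1 to 8 and none is shared between the groups. Higher calls among member genes, 5 in the main fit, were 8 with quantile normalization (Fdps, Fdft1 and Dhcr7 joined, with adjusted p-values of 0.0250, 0.0402 and 0.0237), 1 without an intensity trend, 1 on the second day alone, 1 with averaged probe sets, 0 with the station as a block, and 3 to 5 on leaving out an array, the lowest when retinoic acid replicate 1 or agonist replicate 6, 7 or 8 was missing. Higher member probe sets, 9 in the main fit, were 2 without the trend, 3 on the second day, 0 with the station and 4 to 8 on leaving out an array. Lower calls among members were 0 under every alternative. Hsd17b7 kept its call in 19 of 20 alternatives, the exception being the station (0.56, adjusted p = 0.0529), Hmgcs1 in 16, Scd2 in 14, Msmo1 in 11 and Acly in 10. Higher calls of other lipid genes, 2 in the main fit, were 0 without the trend, 1 on the second day, 0 with the station and 0 with averaged probe sets, and lower calls were 1 with the station (Ch25h) and 1 with averaged probe sets (Icmt). Over all probe sets, 308 higher and 198 lower became 197 and 67 without the trend, 189 and 74 on the second day, and 96 and 42 with the station, and leaving out an array gave 214 to 298 higher and 84 to 318 lower. The second day alone and the station leave fewer samples behind each change, and the cause of the other shifts was not tested.

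Sign changes touched only genes that did not pass. With the station as a block Pmvk was at 0.0652, Idi1 at -0.0117, Nsdhl at -0.0482, Ebp at 0.0392 and Elovl6 at 0.0061. With quantile normalization Elovl6 was at 0.0044 and Scd1 at 0.0174. Mvk was at -0.0025 with median centring, -0.0068 with array weights, -0.0269 on the second day and -0.0108 with averaged probe sets. Sc5d was at 0.0050 with array weights, Insig1 at -0.0469 on the second day and Insig2 at -0.0163 with averaged probe sets. Leaving out an array gave -0.0248 to 0.0823 for Mvk, -0.0409 to 0.0093 for Ebp, -0.169 to 0.0398 for Sc5d, -0.0049 to 0.111 for Srebf2, -0.095 to 0.162 for Insig1 and -0.0662 to 0.0326 for Scd1. Sc5d, Scap and Insig1 were among the dimmest members, which limits what their intervals can show. The same limit holds for the dimmer Lss probe set and the dimmer called Hsd17b7 probe set, which had similar intensities. Background was not measured here.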
